A study of Mus musculus with 16 samples.

Results

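The Fos, Jun and Egr families of immediate early transcription factors were examined in mouse neural stem cells: the 4 Fos genes Fos, Fosb, Fosl1 and Fosl2, the 3 Jun genes Jun, Junb and Jund, and the 3 Egr genes Egr1, Egr2 and Egr3. These 10 genes of the 57132 counted were chosen by name, after earlier results of the same data, in which Fosb was the only gene called between the treatments without a low-count filter. The cells grew with growth factors in self-renewing conditions (GF) in every group, either with the treatment labelled gRNA or as its control. The series title names the treatment TAPIR, which the labels do not explain, and with no target gene given the labels could not be checked against the level of a target. Total RNA was sequenced in 12 libraries: 3 gRNA and 3 control libraries in batch 2 (numbered 4 to 6), and 3 gRNA and 3 control libraries in batch 1 (numbered 1 to 3). What the batch label stands for, and whether libraries came from separate cultures, is not given. The p-values therefore cover at most the spread between these libraries, part or all of which may be technical. The labels used here name no strain, age or clone of the cells either. The 4 ribosome footprint samples were not analysed here, because the P-site table names transcripts with no gene and its library names match no label.

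Immediate early genes are transcribed within minutes of a growth factor, serum or calcium signal, from factors already present in the cell. Serum response factor (SRF) with its ternary complex partners, bound at CArG boxes, and CREB, bound at cyclic AMP response elements (CRE), carry the signal of the MAP kinases to their promoters. Fos proteins cannot bind DNA alone and pair with Jun proteins as AP-1, while Egr proteins bind GC-rich sites through zinc fingers and are restrained by the Nab co-repressors. Neural stem cells kept in growth factors depend on the MAP kinase route for their self-renewal in culture.

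Promoter sequence from RefSeq (GRCm38.p6, while the counts were made on GRCm39) is shown for 6 genes that differed between the batches, so that their elements can be read beside their values. The promoter table used here covers 7 of the 10 genes. Each stretch holds the 150 bases before the transcription start, read 5′ to 3′ on the strand of the gene, except that Egr2 is shown by 30 bases, from -75 to -46 of the third of its 5 starts. Capitals mark matches to the motifs searched on both strands.
Fos, chr12:85473740-85473889, plus strand: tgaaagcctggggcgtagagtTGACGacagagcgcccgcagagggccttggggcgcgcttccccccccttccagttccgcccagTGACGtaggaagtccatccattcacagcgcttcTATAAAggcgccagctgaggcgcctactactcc
Fosb, chr7:19310046-19310195, minus strand: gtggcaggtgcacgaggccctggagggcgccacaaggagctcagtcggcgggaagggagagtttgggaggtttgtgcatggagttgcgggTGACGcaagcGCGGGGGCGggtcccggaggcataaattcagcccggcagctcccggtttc
Junb, chr8:84978749-84978898, minus strand: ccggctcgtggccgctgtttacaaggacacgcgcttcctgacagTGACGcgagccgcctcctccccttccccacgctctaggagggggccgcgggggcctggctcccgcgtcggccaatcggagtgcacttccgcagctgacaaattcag
Egr2, chr10:67537794-67537823, plus strand: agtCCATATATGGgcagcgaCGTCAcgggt
Fosl2, chr5:32136322-32136471, plus strand: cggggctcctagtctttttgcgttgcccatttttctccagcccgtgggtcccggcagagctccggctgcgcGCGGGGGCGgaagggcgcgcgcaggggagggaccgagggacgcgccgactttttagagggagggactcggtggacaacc
Jun, chr4:95052223-95052372, minus strand: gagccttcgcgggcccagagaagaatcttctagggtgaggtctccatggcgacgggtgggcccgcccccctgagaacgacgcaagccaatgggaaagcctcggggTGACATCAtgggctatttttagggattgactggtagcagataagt

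The CRE core TGACG, which is contained in the whole CRE TGACGTCA, began at positions -129 and -66 from the start of Fos, at -60 in Fosb and at -106 in Junb. The Egr2 stretch held a CArG box beginning at -72 and, at -55, the same core on the other strand. Fosl2 had no CRE core in its stretch, but an EGR site (GCGNGGGCG) at -79, and Fosb had an EGR site at -50. Jun had TGACATCA, the site through which c-Jun is known to act on its own promoter, at -45, and Fos had a TATAAA motif at -33. Over 32851 RefSeq start sites, windows of the same 150 bases held the CRE core in 13.3%, the whole CRE in 1.36%, TGACATCA in 2.32%, a CArG box in 0.916%, an EGR site in 3.81%, TATAAA in 7.57% and the AP-1 site TGANTCA in 4.24%. Of the 5 RefSeq starts of Egr2, 4 had a CArG box within the window. Starts 3, 4 and 5 lie close together and share the same box, while start 2 has another. The Jund window held none of the 7 motifs. A match describes the letters only. Sequence outside the 150 bases was not searched, so a motif absent from a window may still lie elsewhere near the gene.

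The libraries held 8414028 to 19454390 counts in genes (median 14918917), and none of the 66 pairs of libraries were identical. Levels are given as CPM, that is, counts scaled to a common library size by TMM, and are compared between libraries, not between genes, since they are not per length. The share of reads outside annotated genes ranged from 8.83% to 12.7% in batch 2, against 19% to 25.1% in batch 1. Stem cell markers were present in both batches: Sox2 averaged 148 ± 22.5 CPM in batch 2 and 151 ± 17.1 CPM in batch 1, and Nes 565 ± 28.9 and 585 ± 111 CPM (SD, n = 6 each). Mki67, a marker of dividing cells, averaged 691 ± 49.6 CPM in batch 2 and 717 ± 66.8 CPM in batch 1. Olig2 averaged 214 CPM in batch 2 and 264 CPM in batch 1, Gfap 12.5 and 15 CPM, Dcx 0.155 and 2.60 CPM, and Tubb3 17.4 and 3.26 CPM.

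**Figure D1:**
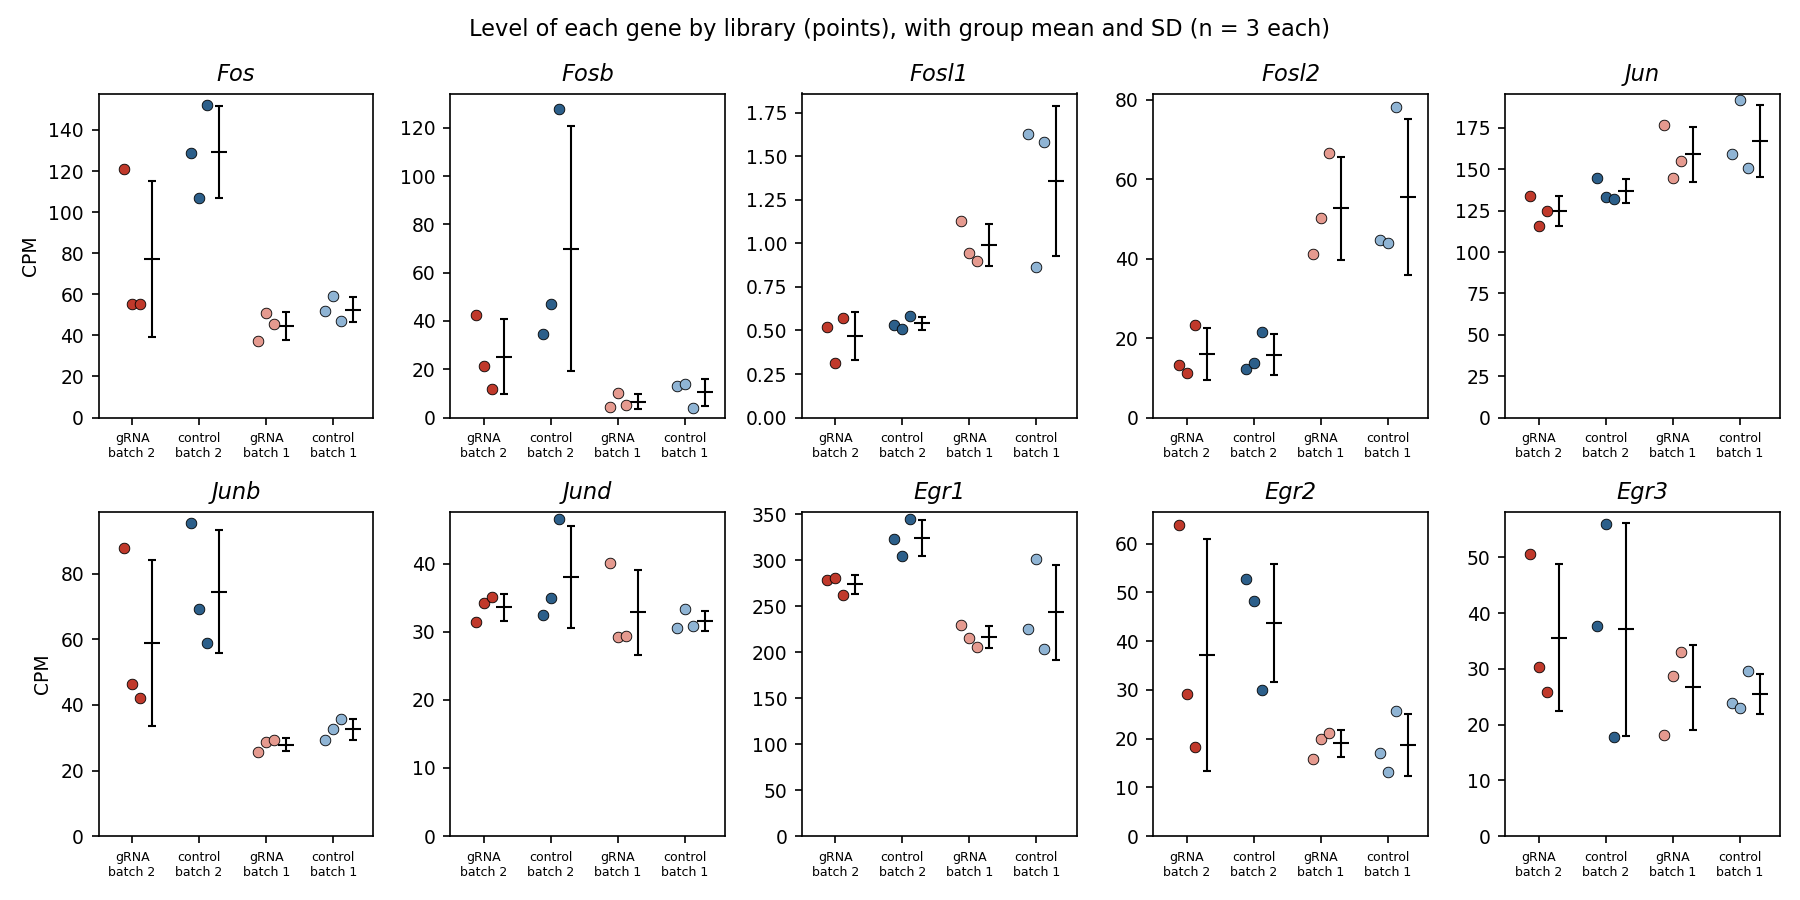
Level of each gene in CPM (y axes, each starting at 0) in every library; points are libraries, and the bar beside them gives the mean and SD of 3 libraries. The batch 2 libraries of Fos, Fosb, Junb and Egr2 sit high and scattered, while all 6 batch 2 libraries of Fosl2 lie at 23.4 CPM or lower, below the 41.2 CPM of the lowest batch 1 library.

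Which of the 10 genes differed between the batches was not the comparison behind the choice of genes, as far as is known. The genes were, however, chosen with earlier results of these data known. Fos, Fosb, Junb and Egr2 were 2.07 to 5.11 times as high in batch 2 as in batch 1, Egr1 and Egr3 were 1.3 and 1.39 times as high, and Fosl2, Fosl1 and Jun were lower, at 0.294, 0.430 and 0.802 times the batch 1 level. Jund did not pass the test. Calls are adjusted p under 0.05 in edgeR's quasi-likelihood test with Benjamini-Hochberg adjustment over all 37217 genes with a count. Without a low-count filter the SEs of the most variable genes were smaller than with it: 0.21 against 0.43 for Fosb and 0.16 against 0.25 for Egr2. Intervals and p-values of such genes without the filter therefore rest on less spread than their libraries showed. Of the 10 genes, 9 were called, 6 higher and 3 lower, beside a background of 41.5% of all genes called (18% higher, 23.5% lower), so that a call between the batches was common. In bulk RNA, fewer cells of a type and less RNA per cell cannot be told apart, and the batch cannot be told apart from anything that differed between the batches.

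Among the Fos genes, Fos, the prototype that pairs with Jun, had 121, 55.5 and 55.3 CPM in the gRNA libraries and 129, 107 and 152 CPM in the control libraries of batch 2. In batch 1 it had 37.5, 51.0 and 45.3 CPM in gRNA and 51.9, 59 and 46.8 CPM in control libraries. Only gRNA libraries 5 and 6 of batch 2 fell within the batch 1 range, and so the batches overlapped. The log2 fold change, batch 2 over batch 1, was 1.05 (SE 0.12; edgeR adjusted p = 1.37e-13, and 0.000385 with a low-count filter).

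Fosb, which encodes full-length FosB and the shorter, long-lived ΔFosB from the same gene, spanned the widest range of the 10 genes relative to its level. It had 42.4, 21.3 and 12 CPM in gRNA and 34.7, 46.9 and 128 CPM in control libraries of batch 2. Batch 1 libraries had 4.41, 10.3 and 5.10 CPM in gRNA and 13.2, 14.1 and 4.16 CPM in control libraries. Control library 6 lay far above the others and gRNA library 6 was the only batch 2 library inside the batch 1 range. Batch 2 averaged 47.6 ± 41.5 CPM and batch 1 8.54 ± 4.55 CPM (SD, n = 6 each), a log2 fold change of 2.35 (SE 0.21; edgeR adjusted p = 1.14e-18, and 0.000326 with the filter, where the SE was 0.43).

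The Fos-related antigens went the other way. Fosl2 (Fra-2) lacks the strong activation domain of Fos. It had 13.3, 11.3 and 23.4 CPM in gRNA and 12.1, 13.8 and 21.6 CPM in control libraries of batch 2. The batch 1 levels were 41.2, 50.1 and 66.5 CPM in gRNA and 44.7, 43.8 and 78.1 CPM in control libraries. Every batch 2 library lay below every batch 1 library, with a log2 fold change of -1.77 (SE 0.14; edgeR adjusted p = 1.09e-20, and 5.61e-06 with the filter). Fosl1 (Fra-1), itself a gene that AP-1 activates, was near the detection limit, with 5 to 9 counts per library in batch 2 and 7 to 30 in batch 1. Its level was 0.504 ± 0.0992 CPM in batch 2 and 1.17 ± 0.346 CPM in batch 1 (SD, n = 6 each), without overlap, and its log2 fold change was -1.22 (SE 0.32; edgeR adjusted p = 0.00101, and 0.000299 with the filter).

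Among the Jun genes, Jun, whose protein is activated by the JNK kinases, had 134, 116 and 125 CPM in gRNA and 145, 133 and 132 CPM in control libraries of batch 2. In batch 1 the levels were 177, 145 and 155 CPM in gRNA and 159, 192 and 151 CPM in control libraries. The batches did not overlap, the highest batch 2 library (control 4) lying just under the lowest batch 1 library (gRNA 2), and the log2 fold change was small at -0.32 (SE 0.08; edgeR adjusted p = 0.000991, and 0.00242 with the filter). Junb, which can oppose Jun at shared targets, had 88.0, 46.3 and 42.2 CPM in gRNA and 95.4, 69.3 and 58.9 CPM in control libraries of batch 2. Its batch 1 levels were 25.8, 28.6 and 29.4 CPM in gRNA and 29.3, 32.8 and 35.7 CPM in control libraries. All batch 2 libraries were above all batch 1 libraries, the only such rise among the 10 genes, with a log2 fold change of 1.13 (SE 0.12; edgeR adjusted p = 4.6e-14, and 5.33e-05 with the filter).

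Jund, the Jun gene least dependent on growth factors in cultured cells, ran from 31.4 to 46.6 CPM in batch 2 (median 34.7) and from 29.2 to 40.1 CPM in batch 1 (median 30.8). The ranges overlapped, and the log2 fold change of 0.15 had a 95% interval of -0.09 to 0.40 (edgeR adjusted p = 0.347).

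Among the Egr genes, Egr1 (Zif268), a common readout of MAP kinase signalling, had 279, 281 and 262 CPM in gRNA and 323, 305 and 345 CPM in control libraries of batch 2. The libraries of batch 1 had 230, 215 and 206 CPM in gRNA and 225, 302 and 204 CPM in control libraries. Only control library 2 of batch 1 reached into the batch 2 range, and the log2 fold change was 0.38 (SE 0.08; edgeR adjusted p = 4.14e-05, and 0.0135 with the filter). Egr2 (Krox20), known for hindbrain patterning and for myelination by Schwann cells, had 63.9, 29.2 and 18.2 CPM in gRNA and 52.7, 48.3 and 29.9 CPM in control libraries of batch 2. In batch 1 the gene had 15.9, 19.9 and 21.2 CPM in gRNA and 17.1, 13.2 and 25.6 CPM in control libraries. Only gRNA library 6 of batch 2 fell within the batch 1 range, and the log2 fold change was 1.09 (SE 0.16; edgeR adjusted p = 3.07e-09, and 0.00251 with the filter).

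Egr3, known in muscle spindle formation and in neurons, had 50.6, 30.3 and 25.8 CPM in gRNA and 37.7, 55.9 and 17.7 CPM in control libraries of batch 2. Batch 1 gave 18.2, 28.8 and 33.0 CPM in gRNA and 23.9, 22.9 and 29.6 CPM in control libraries. Batch 2 held both the lowest and the highest of the 12 values. The log2 fold change of 0.47 (SE 0.15) was called without the filter (edgeR adjusted p = 0.00623) and not with it (0.43, SE 0.23; adjusted p = 0.127), nor by DESeq2 (0.44; adjusted p = 0.123), limma-voom (0.38; adjusted p = 0.219) or in edgeR without gRNA library 4 (0.33; adjusted p = 0.0556) or control library 5 (0.28; adjusted p = 0.111). Nor was it called in edgeR over control libraries alone (0.53; adjusted p = 0.0953) or with no treatment term (0.47; adjusted p = 0.0601).

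**Figure D2:**
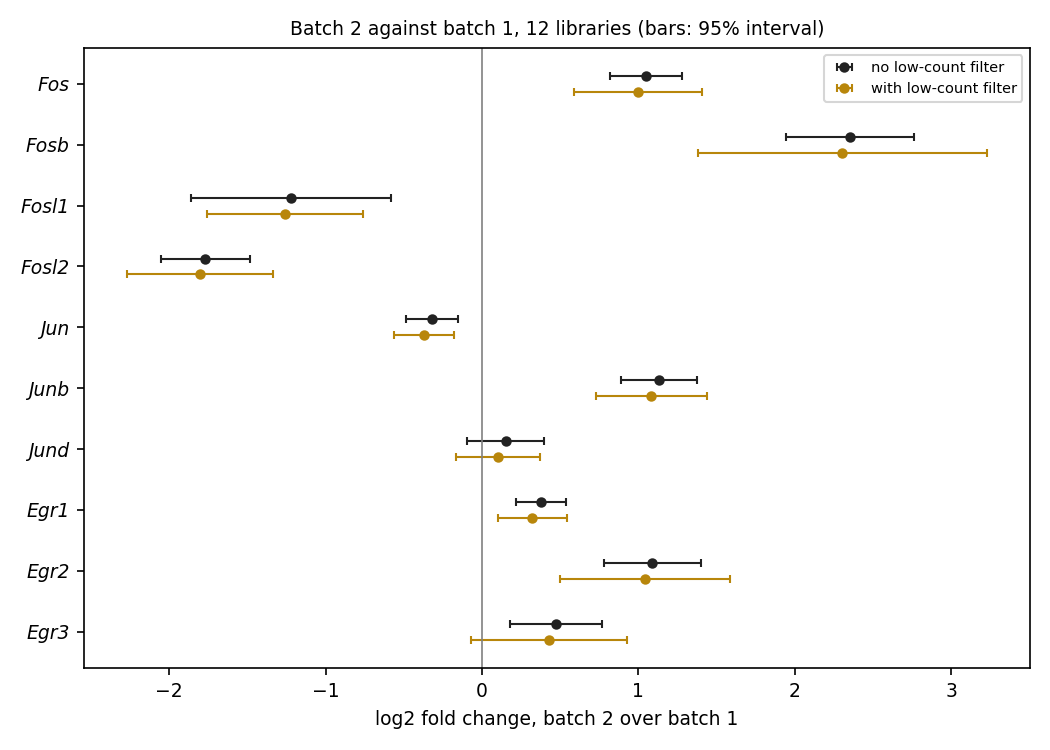
Log2 fold change of each gene, batch 2 over batch 1 (x axis), from edgeR over 12 libraries; points are estimates and bars 95% intervals, without (black) and with (ochre) a low-count filter. Fosb, Junb, Egr2 and Fos lie between 1.00 and 2.35 under both settings and Fosl2 near -1.8, and the bars of Fos and Fosb are wider with the filter.

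The filter keeps 17704 genes, all 10 of these among them (within batch 2 alone Fosl1 does not pass it). With it, 8 of the 10 genes were called between the batches, beside a background of 61.4% (28.4% higher, 33.1% lower). Without the filter, the median log2 fold change of the 10 genes was 0.43, that of all genes tested -0.09, and that of the genes at 1 CPM or more 0.037; with it, that of all genes tested was -0.03. For 4 of the 10 genes the batches did not overlap (Junb higher; Fosl1, Fosl2 and Jun lower), while 24.5% of all genes did not overlap (10.6% higher, 14% lower). 2 further calls rested on the libraries used: Jun was at -0.31 (edgeR adjusted p = 0.095) over control libraries alone, and Fosl1 at -1.07 (adjusted p = 0.0769) over gRNA libraries alone.

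The balance within each family is given as the ratio of the counts of its genes in the same library, which needs no scaling between libraries. Fos counts were 2.36 to 10.6 times the Fosl2 counts in batch 2 (median 7.39), against 0.599 to 1.35 times in batch 1 (median 0.966). The lowest batch 2 ratio, in gRNA library 6, was still above the highest batch 1 ratio, in control library 2. Fosb counts ran from 0.217 to 0.842 of the Fos counts in batch 2 (median 0.367) and from 0.089 to 0.255 in batch 1 (median 0.160), which overlap. Junb counts were 0.337 to 0.659 of the Jun counts in batch 2 (median 0.485) and 0.146 to 0.236 in batch 1 (median 0.187), without overlap. Egr2 over Egr1 had medians of 0.131 in batch 2 and 0.0844 in batch 1, and Egr3 over Egr1 0.113 and 0.120, both with overlapping ranges. These ratios are a description and were not tested, and gene length enters each of them equally in both batches.

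Libraries of the same batch and treatment differed from each other far more for some of the genes than for others. The standard deviation of log2 CPM between like libraries was 0.89 for Fosb, which placed it at the 99.7th percentile of the 10857 genes with at least 5 CPM in each batch, whose median was 0.18. Egr2 followed at 0.57 (percentile 97.9), then Egr3 at 0.55 (97.6), Fosl2 at 0.46 (95.5), Fos at 0.38 (92) and Junb at 0.35 (89.7). Jund at 0.20 (57), Egr1 at 0.16 (42.1) and Jun at 0.13 (27.8) lay in the middle of all genes. Fosl1 at 0.30 has few counts and is not itself among the 10857 genes.

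**Figure D3:**
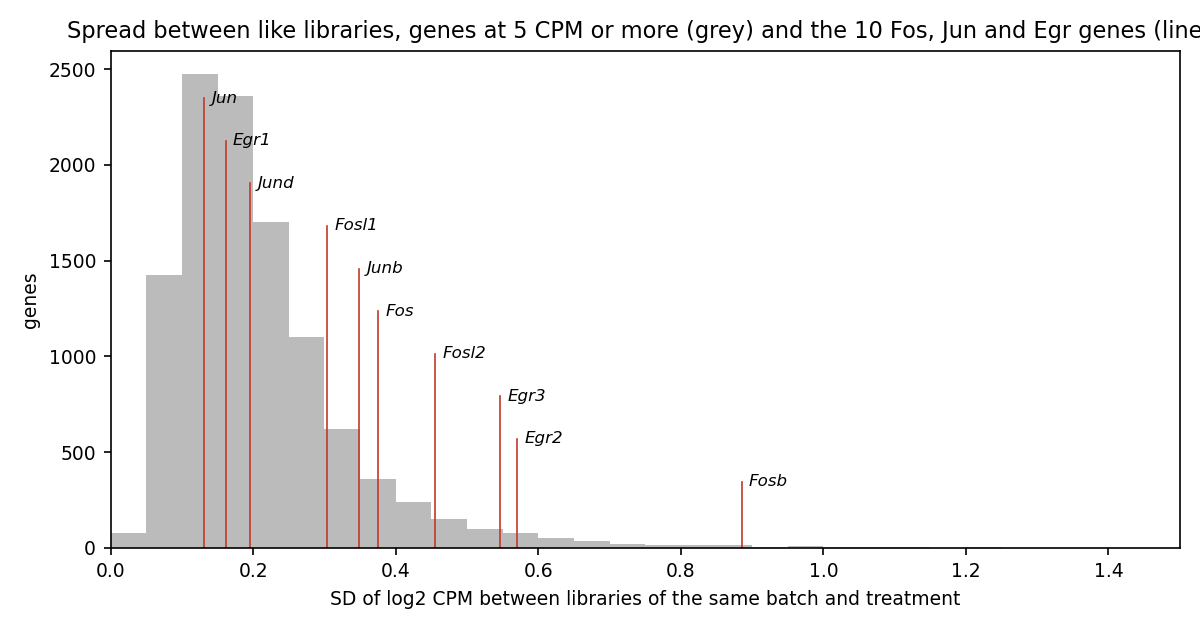
Standard deviation of log2 CPM between libraries of the same batch and treatment (x axis) for genes with at least 5 CPM in each batch (grey, number of genes on the y axis), with a line for each of the 10 genes. The lines of Fosb, Egr2, Egr3 and Fosl2 lie at 0.46 or above, in the right tail, and those of Jun, Egr1 and Jund in the bulk of the distribution; line heights only separate the names.

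The spread of Fos was larger in batch 2, at 0.49 (percentile 94.6) against 0.20 (65.3) in batch 1. That of Junb was 0.48 (94) against 0.12 (34.6). Egr2 (0.72 against 0.37) and Egr3 (0.69 against 0.35) also had the larger spread in batch 2. Egr1 had the opposite order, with 0.07 (percentile 11) in batch 2 and 0.22 (71.3) in batch 1. Within batch 2, gRNA library 4 and control libraries 4 and 5 were above the batch mean for Egr2 and Egr3, by 0.78, 0.51 and 0.38 for Egr2 and by 0.58, 0.16 and 0.72 for Egr3 on the log2 scale. Control library 6 had the highest Fos (152 CPM) and Fosb (128 CPM) of all libraries but the lowest Egr3 (17.7 CPM), so Egr3 did not follow the order of Fos and Fosb. Libraries gRNA 5 and gRNA 6 were below the batch mean for Fos, Fosb, Junb, Egr2 and Egr3. In Fosl2, gRNA library 6 and control library 6 were the highest of batch 2, at 0.61 and 0.50 above the batch mean.

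**Figure D4:**
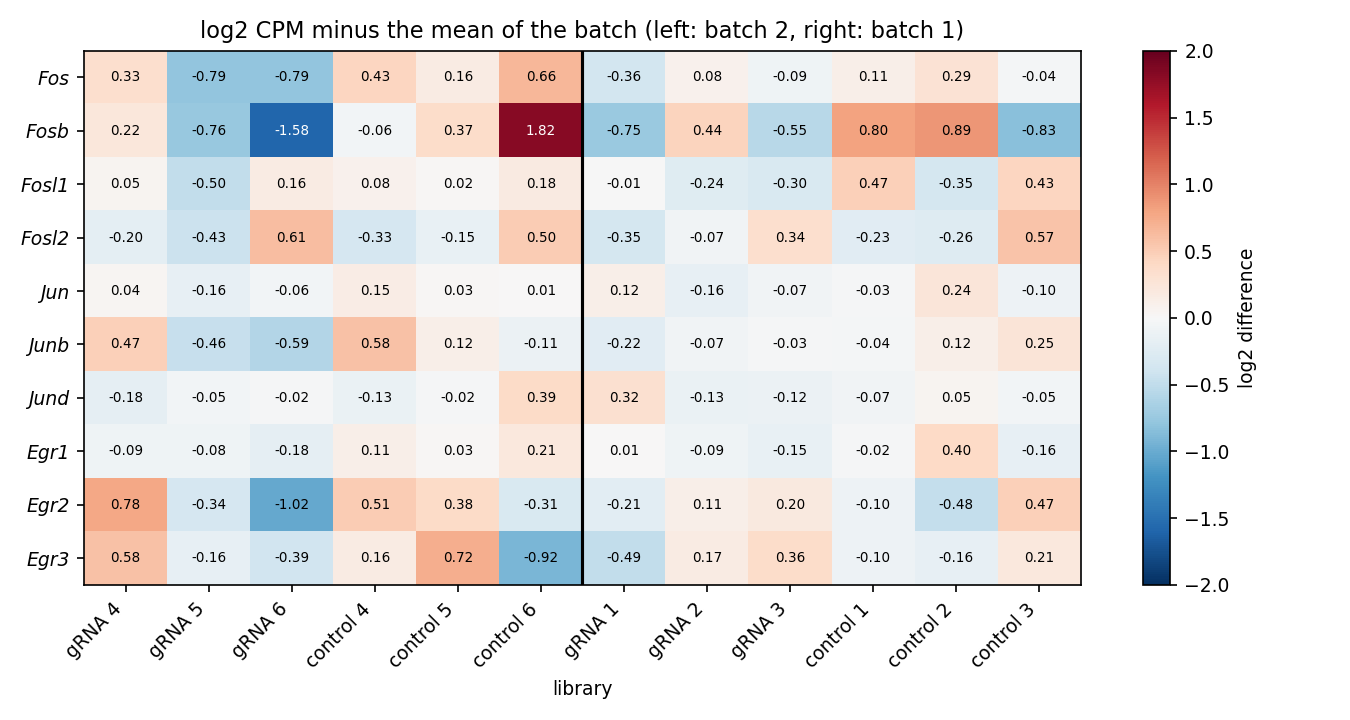
Log2 CPM of each gene (rows) in each library (columns) minus the mean of its batch, with batch 2 to the left of the line and batch 1 to the right; red is above and blue below the batch mean. Fosb in control library 6 stands at 1.82 and in gRNA library 6 at -1.58, while the rows of Jun and Egr1 stay within 0.40 of 0.

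As a description, the 8 named genes whose levels followed those of Fos most closely over the 12 libraries, each centred on its batch mean, were found among 10326 genes. They were Zfp36 (Pearson r = 0.881), which encodes an mRNA decay factor and is itself an immediate early gene, Fosb (0.832), Lrsam1 (0.813), Aldh4a1 (0.808), Acad11, Bmper and Trp53inp1 (0.806 each) and Igdcc4 (0.805). Of the other genes of the families, Junb had r = 0.753, Egr1 0.582, Egr2 0.518, Jun 0.459, Fosl1 0.256, Egr3 0.123, Jund 0.103 and Fosl2 -0.043. Many unrelated genes had a higher r. By r, Junb had rank 25, Egr1 364, Egr2 633, Jun 1005, Egr3 4108, Jund 4315 and Fosl2 5802. How high r reaches by chance over so many genes was not tested. The 12 points share depth and batch, and 2 of the 8 names were kept when rank correlation was used or when libraries were centred on each batch and treatment.

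Whether gRNA libraries differed from control libraries was the study's question, and because these genes were chosen with that contrast in view, their values are given as a description. Fosb averaged 25.2 ± 15.5 CPM in gRNA and 69.9 ± 50.7 CPM in control libraries of batch 2, and 6.60 ± 3.21 CPM in gRNA and 10.5 ± 5.49 CPM in control libraries of batch 1 (SD, n = 3 each). Fos averaged 77.3 ± 37.9 CPM in gRNA and 129 ± 22.6 CPM in control libraries of batch 2, and 44.6 ± 6.76 CPM in gRNA and 52.6 ± 6.15 CPM in control libraries of batch 1. In both genes the gRNA and control libraries overlapped within each batch.

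Over both batches, with batch as a term, the log2 fold change, gRNA over control, was -1.08 (SE 0.20) for Fosb, -0.49 (SE 0.12) for Fos, -0.28 (SE 0.12) for Junb and -0.20 (SE 0.08) for Egr1. It was -0.39 (SE 0.32) for Fosl1, -0.11 (SE 0.16) for Egr2, -0.10 (SE 0.08) for Jun, -0.06 (SE 0.12) for Jund, -0.04 (SE 0.14) for Fosl2 and 0.00 (SE 0.15) for Egr3. The estimate was below 0 for 9 of the 10 genes, with a median of -0.16 over them and of -0.0029 over all genes. The stem cell markers lay the same way: 0 of 10 were above 0 and none was called by edgeR. Their median was -0.13 over both batches. Their summed level in batch 2 was 1860 to 1880 CPM in gRNA and 1930 to 2300 CPM in control libraries, without overlap. In batch 1 the sums overlapped (2120 to 2660 and 2190 to 3080 CPM). The neuronal sum did not overlap in batch 2 either (608 to 686 and 694 to 772 CPM), while the sums of the other marker lists did. Of all genes, 4.63% did not overlap in batch 2 (2.22% lower). The part of the markers in the values of the 10 genes was not tested. Fosb was the 1 gene called among 37217, a background of 0.00269%, and the other 9 were not called. With the low-count filter, in DESeq2, in limma-voom and in edgeR with no batch term, no gene was called; the fold change of Fosb with the filter was -1.11 (SE 0.42) and that of Fos -0.51 (SE 0.19). At an unadjusted p under 0.05 there were 971 genes without the filter (230 with it, 285 by DESeq2, 931 by limma-voom), 4 of the 10 among the 971, which are 2.61% of the genes tested. The genes were chosen after the call of Fosb in this contrast, so neither that call nor the 4 of 10 is a test of them.

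The fold change of Fosb was -0.65 when control library 6 was left out, -0.87 when gRNA library 6 was, and -1.31 when gRNA library 2 was. Leaving out each library in turn gave between 0 and 81 called genes over the whole table in edgeR without the filter. Fosb was called in 10 of those 12 fits, not without gRNA library 1 or gRNA library 6, and Fos in 9, not without gRNA library 1, 5 or 6. Such fits, here and within each batch below, share their libraries with the fit behind the choice of genes. Their calls are therefore no further test of Fosb or Fos. Within batch 2 alone Fosb was at -1.46 (SE 0.32), Fos at -0.74 (SE 0.19), Junb at -0.34 (SE 0.20), Egr1 at -0.24 (SE 0.10) and Egr2 at -0.24 (SE 0.26), and 0% of 32352 genes were called in edgeR (834, or 2.58%, at an unadjusted p under 0.05). Within batch 1 alone Fosb was at -0.64 (SE 0.23), Fos at -0.24 (SE 0.14), Junb at -0.22 (SE 0.16), Egr1 at -0.17 (SE 0.12) and Egr2 at 0.01 (SE 0.18), and 0.00289% of 34546 genes were called, none of the 10. Leaving out 1 library of batch 1 moved Fosb between -1.10 (gRNA library 2) and -0.34 (control library 2) and Fos between -0.32 (gRNA library 2) and -0.12 (control library 2), and brought Egr1 to 0.047 and Jun to 0.067 without control library 2; Fosb was called in 1 of these 6 fits, at -1.04 without control library 3. The estimate was below 0 for 9 of the 10 genes in batch 2 and for 7 in batch 1. In batch 2 the highest gRNA library of Egr1, at 281 CPM, was below the lowest control library, at 305 CPM, the 1 gene of the 10 without overlap there, beside 4.63% of all genes (2.22% lower). Leaving out 1 library, which called Fosb in 5 and Fos in 4 of 6 such fits, moved Fosb within batch 2 between -2.04 and -0.69 and Fos between -1.20 and -0.55, with Fosb at -0.69 without control library 6 and Fos at -1.20 without gRNA library 4.

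**Figure D5:**
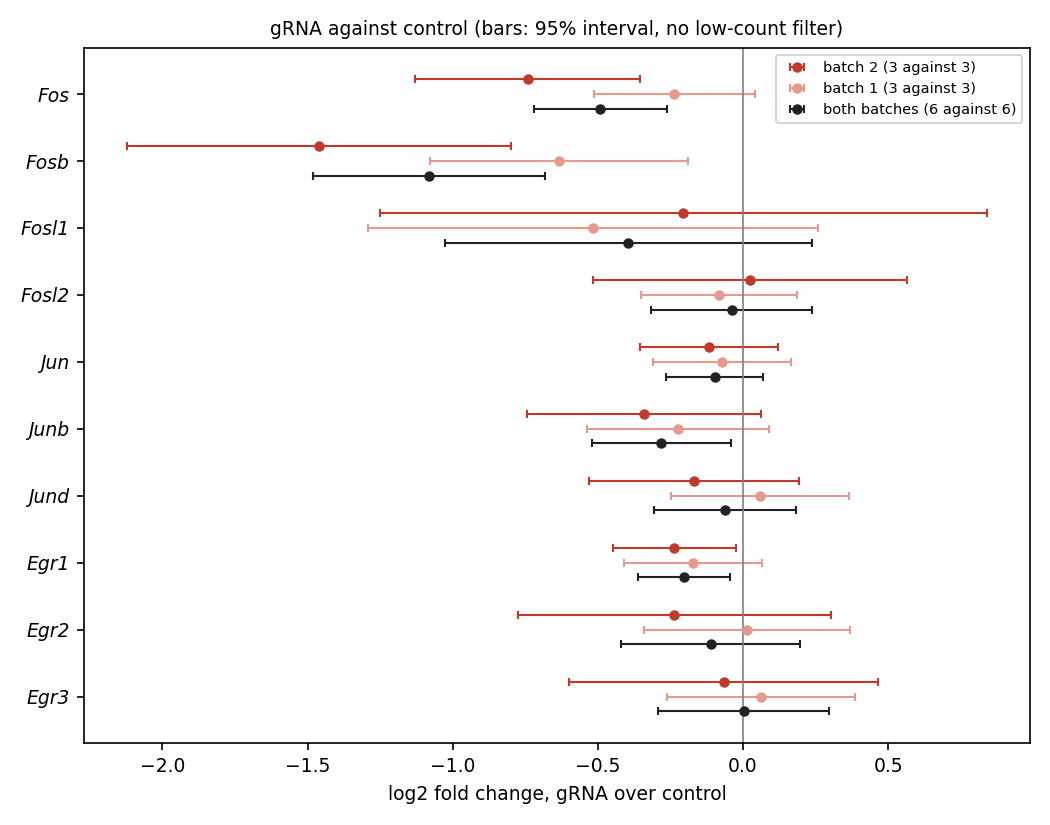
Log2 fold change of each gene, gRNA over control (x axis), in batch 2 (red), batch 1 (pale red) and both batches together (black), from edgeR without a low-count filter; points are estimates and bars 95% intervals. Fosb and Fos lie to the left of 0 in all 3 estimates, and the interval of Fosb reaches from -1.48 to -0.68 over both batches. With the filter, which is not drawn, the interval of Fosb was wider, from -2.01 to -0.20 over both batches and from -1.73 to 0.44 in batch 1.

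The difference of the gRNA effect between the batches, tested as an interaction, was -0.85 (SE 0.28; edgeR adjusted p = 0.667) for Fosb and -0.51 (SE 0.20; adjusted p = 1) for Fos on the log2 scale. None of the 10 genes was called, while 0.113% of all genes were. With the filter the difference was -0.845 (SE 0.83) for Fosb and -0.50 (SE 0.36) for Fos. DESeq2 and edgeR with the filter called 0 genes (261 and 236 at an unadjusted p under 0.05, against 1030, or 2.77%, in edgeR without the filter, 2 of the 10 among them). Without gRNA library 4, in which Fos was 121 CPM against 55.5 and 55.3 CPM in the other gRNA libraries of batch 2, the difference was -0.99 for Fos (edgeR adjusted p = 0.0184) and -1.44 for Fosb (adjusted p = 0.00889). Without control library 4 it was -1.18 for Fosb (adjusted p = 0.0317). Of the 12 fits that each left out a library, 1 called Fos and 2 called Fosb. The estimate came to -0.09 for Fosb without control library 6 and to -0.30 for Fos without gRNA library 5. These calls came from the fit without the filter and depended on which library was left out. They are therefore no further test of Fos or Fosb.

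The rest of the pathway was read from lists of known genes. The 7 lists below hold 114 different genes, since Plaur and a few others stand in more than 1 list. Between gRNA and control libraries over both batches edgeR called 0 of the 114 without the filter (5 at an unadjusted p under 0.05), and DESeq2, limma-voom and the filtered fit called 0 genes in the whole table. In the interaction 1 of the 114 was called, the AP-1 target Spp1 at 2.30 (edgeR adjusted p = 3.21e-06), which the filtered fit and DESeq2 did not call. Between the batches edgeR called 72 of the 114 without the filter. Of all genes it called 41.5% without the filter and 61.4% with it, so a call in these lists was common. Of 39 other immediate early genes, 11 were higher in batch 2 than in batch 1, 18 lower and 10 were not called by edgeR (median log2 fold change -0.21). The largest changes were falls of Ccn2, a matricellular growth factor, at 0.0319 CPM in batch 2 against 3.69 CPM in batch 1 (too few counts in batch 2 for a fold change), and of Ier3, a survival gene induced by stress and growth factors, at 0.491 against 29.3 CPM (-5.88). Plaur, the urokinase receptor, was at -3.68, and Dusp2, a phosphatase of the MAP kinases, rose to 9.29 CPM in batch 2, against 0.940 CPM in batch 1 (3.25). Nr4a1, an orphan nuclear receptor induced together with Fos in many cells, was picked after its value was seen. It averaged 77.0 ± 27.4 CPM in batch 2 and 13.2 ± 2.46 CPM in batch 1 (SD, n = 6 each). Its log2 fold change was 2.53 (edgeR adjusted p = 9.43e-32), while Nr4a2 and Nr4a3 of the same family were lower, at -0.96 and -0.81. In gRNA over control, the smallest unadjusted p among the list were those of Btg2, an antiproliferative gene, at -0.33 (SE 0.11; edgeR adjusted p = 0.942) and Hbegf, a ligand of the EGF receptor, at 0.34 (SE 0.13; adjusted p = 0.942).

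Of 14 SRF, ternary complex and CREB factors, 7 were higher in batch 2, 6 lower and 1 not called (median 0.10). The ternary complex factors Elk4 and Elk3 were lower (-1.55 and -1.31), as was the acetyltransferase Crebbp (-0.90), while the CREB co-activator Crtc2 was higher (0.64). Of 25 kinases and GTPases of the MAP kinase route, 10 were higher, 5 lower and 10 not called (median 0.12). Mapk10, the JNK gene typical of neurons, fell the most (-3.69), Rps6ka1, a kinase that phosphorylates CREB, was at -0.70, and the ERK gene Mapk3 (0.74) and the p38 gene Mapk11 (0.66) were higher.

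Of 13 other genes whose products pair within or beside AP-1, 3 were higher in batch 2, 2 lower and 8 not called (median 0.02), with Mafa at 5.42 (9.69 CPM in batch 2, 0.197 CPM in batch 1), Batf3 at 1.26, Mafk at 0.51 and Maf at -0.88. Of Egr4 and the co-repressors Nab1 and Nab2, Egr4 was lower (-0.52; edgeR adjusted p = 0.024) and both Nab genes were not called. Of 13 known AP-1 targets, 1 was higher, 6 lower and 6 not called (median -0.21). With the low-count filter 10 of the 13 were tested, 1 higher and 7 lower, and their median was -1.02. Here the protease gene Plau was at 0.0225 CPM in batch 2 and 5.35 CPM in batch 1, again too few counts for a fold change, and its receptor gene Plaur at 0.184 and 2.34 CPM. The metalloprotease inhibitor Timp1 (-4.90) and the secreted phosphoprotein Spp1 (-3.11; 3.78 ± 6.36 CPM in batch 2 and 27.2 ± 2.25 CPM in batch 1, SD, n = 6 each) were also lower in batch 2, and Vegfa, picked after its value was seen, was the 1 that was higher (0.76). Of 11 heat shock genes, 2 were higher, 2 lower and 7 not called (median -0.10), with Hspa1a at 0.98, Hsph1 at 0.30 and Hspa8 at -0.36.

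Markers of other cell types moved with the batch as well, beside 41.5% of all genes called between the batches (61.4% with the filter). The summed level of 6 endothelial and mural genes was 4.04 to 5.36 CPM in gRNA and 3.36 to 8.29 CPM in control libraries of batch 2, against 80.9 to 132 and 63.6 to 155 CPM in batch 1, most of it Acta2 (0.547 CPM in batch 2, 105 CPM in batch 1). The 5 fibroblast genes summed to 2.11 to 4.94 CPM in gRNA and 1.53 to 18.0 CPM in control libraries of batch 2, against 26.3 to 74.6 and 25.0 to 71.7 CPM in batch 1, most of it Thy1 (0.0859 CPM in batch 2, 53.2 CPM in batch 1), while the collagen gene Col1a2 was at 0.0104 and 0.682 CPM and Dcn at 0.00961 and 0 CPM. The 6 oligodendrocyte lineage genes summed to 176 to 247 CPM in gRNA and 216 to 334 CPM in control libraries of batch 2, against 81.0 to 115 and 72.0 to 121 CPM in batch 1. The 6 microglial genes summed to 0.727 to 6.66 CPM over all libraries, with Itgam at 0 CPM in batch 2 and Cx3cr1 at 0.0127 CPM. The 10 stem cell markers summed to 1860 to 1880 CPM in gRNA and 1930 to 2300 CPM in control libraries of batch 2, against 2120 to 2660 and 2190 to 3080 CPM in batch 1, with 1 higher, 6 lower and 3 not called. The 6 neuronal genes summed to 608 to 686 CPM in gRNA and 694 to 772 CPM in control libraries of batch 2, against 653 to 775 and 679 to 889 CPM in batch 1. Most of this was Map2 (669 CPM in batch 2, 704 CPM in batch 1), while Syt1 (0.859 and 18.8 CPM), Rbfox3 (0.966 and 11.9 CPM), Snap25 (0.0992 and 3.43 CPM) and Dcx were lower in batch 2, for a list median of -3.86 on the log2 scale. The 6 astrocyte genes summed to 463 to 641 CPM in gRNA and 471 to 626 CPM in control libraries of batch 2, against 735 to 959 and 676 to 1140 CPM in batch 1. In each of the neuronal and astrocyte lists 1 gene was higher in batch 2, 4 were lower and 1 was not called. The part of these markers, and of the share of reads outside genes, in the levels of the 10 genes was not tested.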

How the data were processed

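The deposited RNA-seq values are raw read counts per gene from the authors, not normalized; per the submitters' processing notes STAR, HTSeq, SAMtools and Trimmomatic made them on GRCm39. Per the labels' protocols, libraries were stranded and depleted of ribosomal RNA; the counting's strand setting is not given in the sources at hand. The 5 summary lines of HTSeq were left out, and symbols matched 51880 of 57132 genes (90.8%). Libraries held 8414028 to 19454390 counts.

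The 10 genes and all gene lists were chosen with earlier results of these data known. Counts were scaled by TMM and tested in edgeR 4.0.16 (R 4.3.3) by the quasi-likelihood test, without a low-count filter, for gRNA against control (batch as a term, and within each batch), batch 2 against batch 1 (treatment as a term) and their interaction. On simulated counts this unfiltered fit made more false calls than its threshold allows, so batch calls are also given with filterByExpr (minimum count 10). Other alternatives were DESeq2 1.42.0, its size factors, limma-voom 3.58.1 and leaving out each library. SE is the log2 fold change divided by the root of the test's F. Likeness to Fos and spread used log2 CPM with a prior count of 2. From each list were named the 4 largest batch changes at 1 CPM or more and the 2 smallest p for gRNA; exceptions are marked. Tables and figures used Python 3.11.15 with matplotlib 3.10.9, scipy 1.17.1, numpy 2.4.6 and pandas 2.3.3. The planned footprint values were not run, for want of a map from transcripts to genes.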

Additional observations from a re-analysis of the deposited data

Results flagged for a closer look

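Within the 6 gRNA or 6 control libraries of a gene, 5 values stood apart from the nearest other library by a share of the group's range above Dixon's critical value at 95%. Dixon's value would mark about 1 in 20 groups by chance if each group were uniform. Each of the 20 groups spans both batches, so that rate does not apply and the 5 marks cannot be read as an excess. In gRNA library 4, Fos was at 121 CPM, Junb at 88.0 CPM and Egr2 at 63.9 CPM. In control library 6, Fosb was at 128 CPM and Jund at 46.6 CPM.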

How the results depend on the processing

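Between the batches, 181 of 190 alternative values of the 10 genes kept direction and side of the threshold, 9 kept direction only (Egr3, Jun and Fosl1, above) and 0 reversed. The number of genes called was 9548 over control libraries alone, against 15458, and 14425 to 15900 without 1 library. For gRNA over control, 344 of 349 alternative values of the 10 genes moved by less than 1 SD of log2 CPM between like libraries. That SD is wide for the variable genes (0.89 for Fosb). A move of Fosb from -1.08 to -0.65 over both batches counts as none, so this share is no measure of stability. Called genes over both batches numbered 1 with DESeq2 size factors and 0 by DESeq2, with the filter, with no batch term or by limma-voom, and 0 to 81 without 1 library. They numbered 1 to 37 without 1 library in batch 1 (0 by DESeq2 and with the filter, against 1) and 0 to 150 in batch 2 (against 0). For the interaction they numbered 42, 48 with DESeq2 size factors, 0 by DESeq2 and with the filter, and 22 to 126 without 1 library. Without 1 library the interaction changed sign for Fosl2 (-0.28 to 0.38), Jun (-0.16 to 0.033), Junb (-0.53 to 0.10), Egr1 (-0.26 to 0.041), Egr2 (-0.89 to 0.082) and Egr3 (-0.47 to 0.29). It was -0.99 to -0.30 for Fos and -1.44 to -0.09 for Fosb, and the cause was not tested. Of the 8 genes most like Fos, 2 were shared under rank correlation and 2 under centring on batch and treatment. Of alternatives chosen after seeing the data, the filter and leaving out control library 6 kept the calls of the 7 pathway lists within 1.5 times. The filter moved the list medians to -1.02 for AP-1 targets, 0.057 for SRF, ternary complex and CREB factors, 0.076 for MAP kinases and -0.021 for AP-1 partners. In the marker lists the filter left 1 lower fibroblast gene, 0 lower oligodendrocyte and 0 higher endothelial and mural genes, and without control library 6 there was 0 higher fibroblast gene. No paired analysis was possible because the RNA-seq labels carry no replicate numbers and the footprint library names match no label. Fosl1, with 5 to 30 counts a library, and 3 libraries a group limit what can be seen.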

Other observations

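Other immediate early genes and factors of the same route, picked after their values were seen, also differed between the batches. Of the 39 other immediate early genes as a whole, 11 were called higher in batch 2 and 18 lower. Of all genes, 41.5% were called, so these picks do not show the direction of the list. Ier2, a short-lived nuclear regulator, averaged 101 ± 23.2 CPM in batch 2 and 39.7 ± 7.05 CPM in batch 1 (SD, n = 6 each; log2 fold change 1.33, edgeR adjusted p = 3.4e-20). Dusp5, a phosphatase that acts on nuclear ERK, averaged 44.9 ± 12.4 CPM in batch 2 and 17.1 ± 2.92 CPM in batch 1 (log2 fold change 1.39). Srf itself averaged 108 ± 12.6 CPM in batch 2 and 69.7 ± 8.36 CPM in batch 1 (0.63). Hbegf was lower, at 32.3 ± 15.2 CPM in batch 2 and 70.8 ± 7.28 CPM in batch 1 (-1.16).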
